A study of Rattus norvegicus with 2 samples.

Results

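The genes described here are 9 antioxidant enzymes, Gpx1, Gpx3, Gpx4, Sod1, Sod2, Sod3, Cat, Prdx1 and Prdx6, and the scavenger receptor class A member Scara3. They were chosen by symbol and make up 10 of the 32623 genes counted in each library, and every one was found once. The cochlear ducts of Sprague-Dawley rats were dissociated at postnatal day 1 (P1, the day of birth in the study) and postnatal day 7 (P7), to follow the greater epithelial ridge, a transient epithelial structure of the developing cochlea. Each age is 1 droplet library of single cells pooled from several animals with no treatment labelled, after the stria vascularis, the spiral ligament and the spiral ganglion had been dissected away and dead cells had been removed. With 1 library per age, age and library cannot be told apart and the ages could not be tested against each other. The 95% intervals given below are exact and cover counting error only.

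Superoxide is made by the mitochondrial respiratory chain and by NADPH oxidases. Superoxide dismutases turn it into hydrogen peroxide, which catalase, the glutathione peroxidases and the peroxiredoxins then reduce to water. Hair cells and neurons of the cochlea are known to be sensitive to oxidants formed after noise and ototoxic drugs, and the superoxide dismutases and glutathione peroxidases are among the defences most studied there. Scara3 belongs by sequence to the class A scavenger receptors and has been linked to protection of cells from oxidative stress.

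The libraries held 114285848 UMIs (unique molecular identifiers, 1 for each captured transcript) in 14068 barcodes at P1 and 101264868 in 14501 at P7. The limits on genes, UMIs and mitochondrial share left 12779 and 12581 cells, with medians of 6565 and 6878 UMIs. The libraries shared 60 barcode sequences. Both are labelled as greater epithelial ridge cells, but a UMI of the epithelial gene Epcam was found in 4.94% and 4.55% of the kept cells, and at least 3 of 6 ridge genes in 1.14% and 1.29%. Levels are given in CPM, a gene's UMIs per 1000000 UMIs of the cells concerned, and "higher" or "lower" below means a P7 to P1 ratio of at least 1.5 in that direction for a gene of at least 10 CPM at one of the ages. Levels of different genes were not compared, since only one end of each transcript was counted and its capture differs between genes.

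Cells were sorted into classes by lists of marker genes that hold none of the 10. Of 25360 kept cells, 15306 (60.4%) fell into a class, and 11 classes had at least 50 cells at both ages. They were myelinating Schwann-like cells (363 at P1 and 1473 at P7), other glia-like cells (478 and 615), neuron-like cells (444 and 97), endothelial-like cells (162 and 199), pericyte-like cells (307 and 276), macrophage-like cells (155 and 187), epithelial-like cells (182 and 112), and 4 mesenchymal classes. The mesenchymal classes are called by their genes: Otor-high cells (1284 and 1187), Gpc3-Dcn cells (1883 and 2210), Aldh1a2 cells (632 and 557) and Ccn3 cells (1654 and 643). The names stand for the marker lists only, and the epithelial-like class was led by Oc90, which encodes a matrix protein of otoconia, at both ages. The neuron-like cells differed in depth, with medians of 18256.5 UMIs at P1 and 6501 at P7. They also differed in their markers, given here as medians of summed UMIs per 10000 UMIs of a cell. The neuron markers stood at 72.8 at P1 and 15.4 at P7, and the myelinating Schwann-like markers at 9.41 and 60.9.

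Transcripts of one class were also counted in cells of another. Otor, for which the Otor-high cells are named, was found in the macrophage-like cells at 7.88% of its Otor-high level at P1 and 14.6% at P7. Free RNA of this kind cannot be told apart from a low level of expression by the counts alone, so the markers of the class of origin are given below beside the results they touch.

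Over all kept cells, Gpx3 and Sod3, the secreted members of their families, were higher at P7, none of the 10 genes was lower, and the other 8 stayed within 1.5-fold. Of all 8222 genes of at least 10 CPM, 23.1% were higher and 15.3% lower by the same rule, so that a count of 2 in 10 higher is near the background. The median log2 ratio of P7 to P1 was 0.13 over all genes and 0.12 over the 10.

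Gpx3 was counted at 18.2 CPM at P1 and 54.1 at P7, a 2.97-fold difference (log2 ratio 1.57, interval 1.49 to 1.65), and 97.1% of all genes had a lower ratio. Sod3 was counted at 28.6 and 49.8 CPM, with a log2 ratio of 0.80 (0.73 to 0.87). Cat had 59.0 and 78.0 CPM (log2 0.40), and Prdx1 had 415 and 527 CPM (0.34). These 4 genes, and Gpx4, lay above the median of all genes. Gpx4 had 486 and 545 CPM (0.17), Prdx6 149 and 157 (0.08), Sod1 163 and 169 (0.06), and Sod2 117 and 112 (-0.05). Gpx1, at 213 and 152 CPM (-0.48), and Scara3, at 70.2 and 51.7 CPM (-0.44), had the lowest ratios of the 10, and 18.2% and 19.8% of all genes lay below them. The 9 enzymes together made up 1648 CPM at P1 and 1845 at P7.

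The share of cells in which a gene was found went the same way. With every cell thinned to 2000 UMIs, which left out 252 cells at P1 and 711 at P7, a UMI was found in a larger share of P7 than of P1 cells for 7 of the 10 genes. Gpx3 was found in 2.94% of cells at P1 and 7.69% at P7, and Sod3 in 5.92% and 8.73%. Gpx4 (60.9% and 65.7%) and Prdx1 (53.4% and 62.0%) were found in most cells at both ages, Sod1 in 27.0% and 28.4%, Prdx6 in 25.4% and 26.7%, and Cat in 11.4% and 14.9%. The shares were smaller at P7 for Gpx1 (29.8% and 22.1%), Scara3 (11.3% and 7.58%) and Sod2 (19.5% and 19.0%). Without thinning the same 7 of 10 were larger at P7, with Gpx3 at 10.5% and 18.9% and Gpx1 at 64.4% and 54.0%, at the median depths given above.

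Upstream sequences are shown for the enzyme with the largest difference, Gpx3, for Cat, whose ratio was positive in every class as gated, and for Prdx1 and Sod2, the members whose upstream window holds the core letters of the antioxidant response element. This element is bound by NRF2 (gene Nfe2l2), a regulator of many antioxidant genes. The 250 bases before the annotated start were taken from RefSeq (build GRCr8), chr10:39529085-39529334 on the plus strand for Gpx3, chr3:110329527-110329776 on the minus strand for Cat, chr5:135383656-135383905 on the plus strand for Prdx1 and chr1:50050169-50050418 on the minus strand for Sod2, and are written 5' to 3' on the gene's strand. Capitals mark TGACNNNGC and the GC box GGGCGG on either strand.

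Gpx3: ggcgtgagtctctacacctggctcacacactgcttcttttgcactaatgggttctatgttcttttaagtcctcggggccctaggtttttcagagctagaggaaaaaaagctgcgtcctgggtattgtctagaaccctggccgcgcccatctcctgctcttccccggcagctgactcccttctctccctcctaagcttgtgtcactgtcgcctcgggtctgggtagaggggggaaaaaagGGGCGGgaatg

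Cat: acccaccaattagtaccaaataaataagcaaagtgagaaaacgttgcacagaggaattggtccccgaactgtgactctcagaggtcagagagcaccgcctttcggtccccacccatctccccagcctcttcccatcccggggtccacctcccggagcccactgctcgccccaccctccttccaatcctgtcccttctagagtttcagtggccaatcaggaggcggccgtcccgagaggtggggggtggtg

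Prdx1: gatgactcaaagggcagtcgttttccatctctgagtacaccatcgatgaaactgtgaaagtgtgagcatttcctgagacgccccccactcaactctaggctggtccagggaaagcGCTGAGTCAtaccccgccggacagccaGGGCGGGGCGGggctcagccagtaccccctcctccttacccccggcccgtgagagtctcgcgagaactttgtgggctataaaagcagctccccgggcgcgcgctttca

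Sod2: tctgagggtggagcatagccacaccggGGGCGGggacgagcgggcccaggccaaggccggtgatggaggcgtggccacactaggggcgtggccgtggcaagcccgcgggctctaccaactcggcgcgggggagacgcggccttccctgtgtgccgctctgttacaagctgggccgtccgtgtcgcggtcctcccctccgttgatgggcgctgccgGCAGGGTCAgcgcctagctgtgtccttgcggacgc

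Windows were found for 7 of the 10 genes, 9 windows in all, and Sod3, Prdx6 and Scara3 had none in the table. TGACNNNGC was present in 2 of the 9, at Prdx1, where it lay 126 bases before the start, and at Sod2, where it lay 26 bases before it, against 10.1% of the 33469 windows in the table. GGGCGG was present at 6 of the 7 genes, and in 30.5% of all windows. At Gpx4 it was in 2 windows that overlap and share their matches. The single match at Gpx3 lay 5 bases before the start, and neither set of letters was in the Cat window. These are matches of letters and not binding sites, and the shares were not tested.

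Within the 11 classes there were 110 pairs of a gene and a class, of which 104 reached 10 CPM. Of these, 20 were higher and 7 lower at P7. Of these 27, the intervals of 3 held a log2 ratio of 0, and 9 rested on fewer than 50 UMIs in one of the libraries. Of all genes, 21.8% to 32.8% were higher and 12.6% to 28.4% lower by the same rule, depending on the class.

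In the mesenchymal classes, Sod3 was higher in all 4 and Gpx3 in 3, the Aldh1a2 cells being the exception. Of the 10 genes, 3 were higher and none lower in the Otor-high cells (background 27.2% and 13.5% of all genes), 2 higher and 1 lower in the Gpc3-Dcn cells (22.2% and 16.2%), 1 higher and none lower in the Aldh1a2 cells (25.1% and 12.6%), and 2 higher and none lower in the Ccn3 cells (25.3% and 14.0%). In the glial classes, where 8 of the genes reached 10 CPM, 1 was higher and none lower in the Schwann-like cells (25.4% and 18.2%), and none was higher and 1 lower in the other glia-like cells (24.0% and 17.8%).

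Of the other classes, the neuron-like cells had 4 higher and 1 lower (32.8% and 28.4%), the endothelial-like cells 4 and 1 (25.5% and 15.1%), the macrophage-like cells 1 and 2 of 9 (31.3% and 12.6%), the epithelial-like cells 2 and 1 (28.8% and 15.5%), and the pericyte-like cells none of 9 in either direction (21.8% and 15.1%). Each count is of at most 10 genes and was not tested against these shares.

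**Figure D1:**
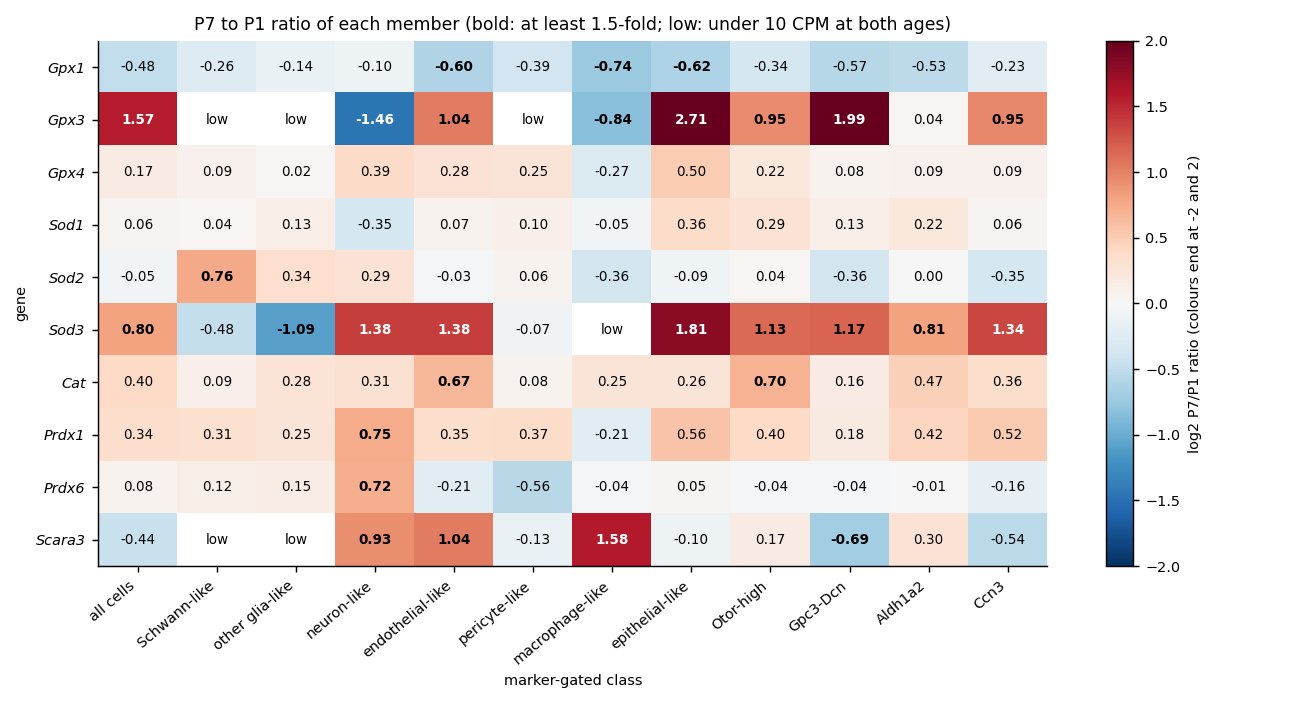
Log2 ratio of P7 to P1 for each gene (vertical axis) over all kept cells and in each marker-gated class (horizontal axis), coloured from blue (lower at P7) to red (higher at P7). Bold values passed 1.5-fold, and "low" marks pairs under 10 CPM at both ages; as plotted the Gpx1 line is negative and the Cat line positive in all 11 classes, and these signs turned under an alternative in 3 classes for Gpx1 and 4 for Cat.

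Sod1, the cytosolic copper and zinc dismutase (ENSRNOG00000002115), differed little between ages. At P1 it was highest in the neuron-like cells, at 277 CPM, apart from the epithelial-like cells at 192 CPM, and lowest in the other glia-like cells at 131 CPM. At P7 the epithelial-like cells came first, at 247 CPM, followed by the Aldh1a2 cells at 219.6 CPM and the neuron-like cells at 217 CPM, and these neighbours in the order overlapped. No class passed 1.5-fold, and the log2 ratios ran from -0.35 in the neuron-like cells to 0.36 in the epithelial-like cells. Over the 8 settings tried, the ratio of the neuron-like cells ran from -0.54 to -0.02. Depth and Schwann-like markers differed between the ages in this class as given above, and the part of these was not tested.

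Sod2, the manganese dismutase of mitochondria (ENSRNOG00000019048), was highest at P1 in the macrophage-like cells, at 220.1 CPM, and next in the neuron-like cells, at 153 CPM. In the myelinating Schwann-like cells it was counted at 103 CPM at P1 and 174 at P7, a log2 ratio of 0.76 (0.56 to 0.96), and this was the only class past the fold. Different clusters held most Schwann-like cells at each age, since the clusters named for this class held 39 of the 363 gated cells at P1 and 1268 of the 1473 at P7. With classes from clusters the ratio was 0.63. In the other glia-like cells it had 108 and 136 CPM (0.34). At P7 the Schwann-like cells stood second, and their interval overlapped that of the neuron-like cells at 187 CPM. At that age the neuron-like cells held more Schwann-like than neuron markers, as given above, and the part of these was not tested. The Gpc3-Dcn cells went from 104 to 80.5 CPM (-0.36, interval -0.47 to -0.26), and were the lowest class at P7.

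Sod3 (ENSRNOG00000003869) is the secreted dismutase of the extracellular matrix, and it had the widest set of differences. It was higher at P7 in 7 of the 10 classes where it reached 10 CPM, among them all 4 mesenchymal classes. In the epithelial-like cells it had 39.1 CPM at P1 and 137 at P7, a log2 ratio of 1.81 (1.42 to 2.21). In the Otor-high cells it had 38.8 and 85.2 CPM (1.13, interval 0.96 to 1.31), and in the Gpc3-Dcn cells 27.6 and 62.1 CPM (1.17, interval 1.00 to 1.34). The Ccn3 cells had 113 and 102 UMIs, the latter 20.3 CPM, with a log2 ratio of 1.34 (0.94 to 1.74), and the Aldh1a2 cells had 7.29 and 12.8 CPM (0.81, interval 0.23 to 1.40), so that these classes were among the 3 lowest at both ages. Where classes were taken from clusters, the ratio of the Aldh1a2 cells turned to -0.83, and the P1 cells so classed shared 18 of the 632 gated ones. The 6 Otor-high markers summed to 40.4% and 48.1% of their Otor-high level in the Ccn3 cells, with all 6 higher at P7. In the Aldh1a2 cells they summed to 31.5% and 38.5%, with 4 of the 6 higher. None was at 0 in either class, and the part of these transcripts in the Sod3 values was not tested.

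The other glia-like cells went the other way. In these cells Sod3 was counted at 102 CPM at P1 and 48.0 at P7 (log2 ratio -1.09, interval -1.36 to -0.83), and in the Schwann-like cells, within the fold, at 64.8 and 46.6 CPM (-0.48, interval -0.75 to -0.19, with up to 0.05 under an alternative). The clusters named for other glia held 449 of the 478 gated cells at P1 and 126 of the 615 at P7, so that different clusters held most of this class at each age too. The order of classes changed with this. The other glia-like and Schwann-like cells were first and second at P1, both apart from the class below, whereas at P7 the epithelial-like, Otor-high and Gpc3-Dcn cells were the first 3, each apart from the next. The remaining classes past the fold were the neuron-like cells (18.3 and 47.7 CPM, 131 and 35 UMIs) and the endothelial-like cells (8.02 and 20.9 CPM, 14 and 37 UMIs). In both, transcripts of the Otor-high cells were also more abundant at P7: their 6 markers summed to 921 and 2380.1 CPM in the neuron-like cells, with 5 of the 6 higher and none at 0, and to 1319 and 3757 CPM in the endothelial-like cells, with all 6 higher and Car3 at 0 at P1. These sums were 3.33% and 8.03%, and 4.76% and 12.7%, of those in the Otor-high cells, and their part in the Sod3 values was not tested. In the neuron-like cells the 6 Schwann-like markers summed to 1079 and 6603 CPM, 14.2% and 27.8% of their Schwann-like level. Of these markers 5 were higher at P7 and Ncmap was at 0 at both ages, and their part was not tested either. In the other glia-like cells the 6 Schwann-like markers summed to 3205 and 5281 CPM, 42.05% and 22.3% of their Schwann-like level. In CPM, 4 of the 6 were higher at P7, and Ncmap was at 0 at both ages. The part of these markers was likewise not tested.

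After thinning, a UMI of Sod3 was found in 6.08% of epithelial-like cells at P1 and 20.5% at P7, and in 6.53% and 14.2% of Otor-high cells. In the macrophage-like cells, the lowest class at P7, the shares were 1.99% and 2.91%. Without thinning, the shares were 20.3% and 40.2% in the epithelial-like, 21.4% and 40.4% in the Otor-high and 5.81% and 5.88% in the macrophage-like cells, at median depths of 9133 and 13553.5, 6762 and 8548, and 7742 and 7049 UMIs. The epithelial-like and Otor-high shares lay above the macrophage-like share at both ages. Among epithelial-like cells, Sod3 was higher in those with at least 2 genes of the tectorial membrane than in the rest, at 46.8 against 26.4 CPM at P1 (log2 difference 0.83, interval 0.06 to 1.66) and 150.02 against 87.4 CPM at P7 (0.78, interval 0.19 to 1.42). The rest were 75 cells at P1 and 26 at P7, with 19 and 27 UMIs of Sod3. They were less deep, with medians of 8735 and 10992.5 UMIs against 9267 and 14068.

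Cat, the catalase of peroxisomes (ENSRNOG00000008364), had a positive log2 ratio in all 11 classes, from 0.08 in the pericyte-like cells to 0.70 in the Otor-high cells. It was higher in the Otor-high cells, with 50.5 CPM at P1 and 82.1 at P7 (interval of the log2 ratio 0.54 to 0.86), and in the endothelial-like cells, with 53.9 and 85.8 CPM (0.67, interval 0.29 to 1.06), where the Otor-high markers were also more abundant at P7 as given above and their part was not tested. The Aldh1a2 cells had 54.9 and 76.3 CPM (0.47) and the Ccn3 cells 53.5 and 68.5 CPM (0.36). In 5 classes, the Schwann-like, neuron-like, pericyte-like, macrophage-like and epithelial-like cells, the interval held 0. Over the alternatives the sign turned in 4 classes, down to -0.11 in the macrophage-like, -0.05 in the Schwann-like, -0.04 in the other glia-like and -0.02 in the pericyte-like cells, and in the Schwann-like and pericyte-like cells the ratio lay below the median of all genes there (0.14 and 0.10). As gated, glia had the most Cat at both ages: the other glia-like cells stood at 105 and 128 CPM and the Schwann-like cells at 91.7 and 97.9 CPM.

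**Figure D2:**
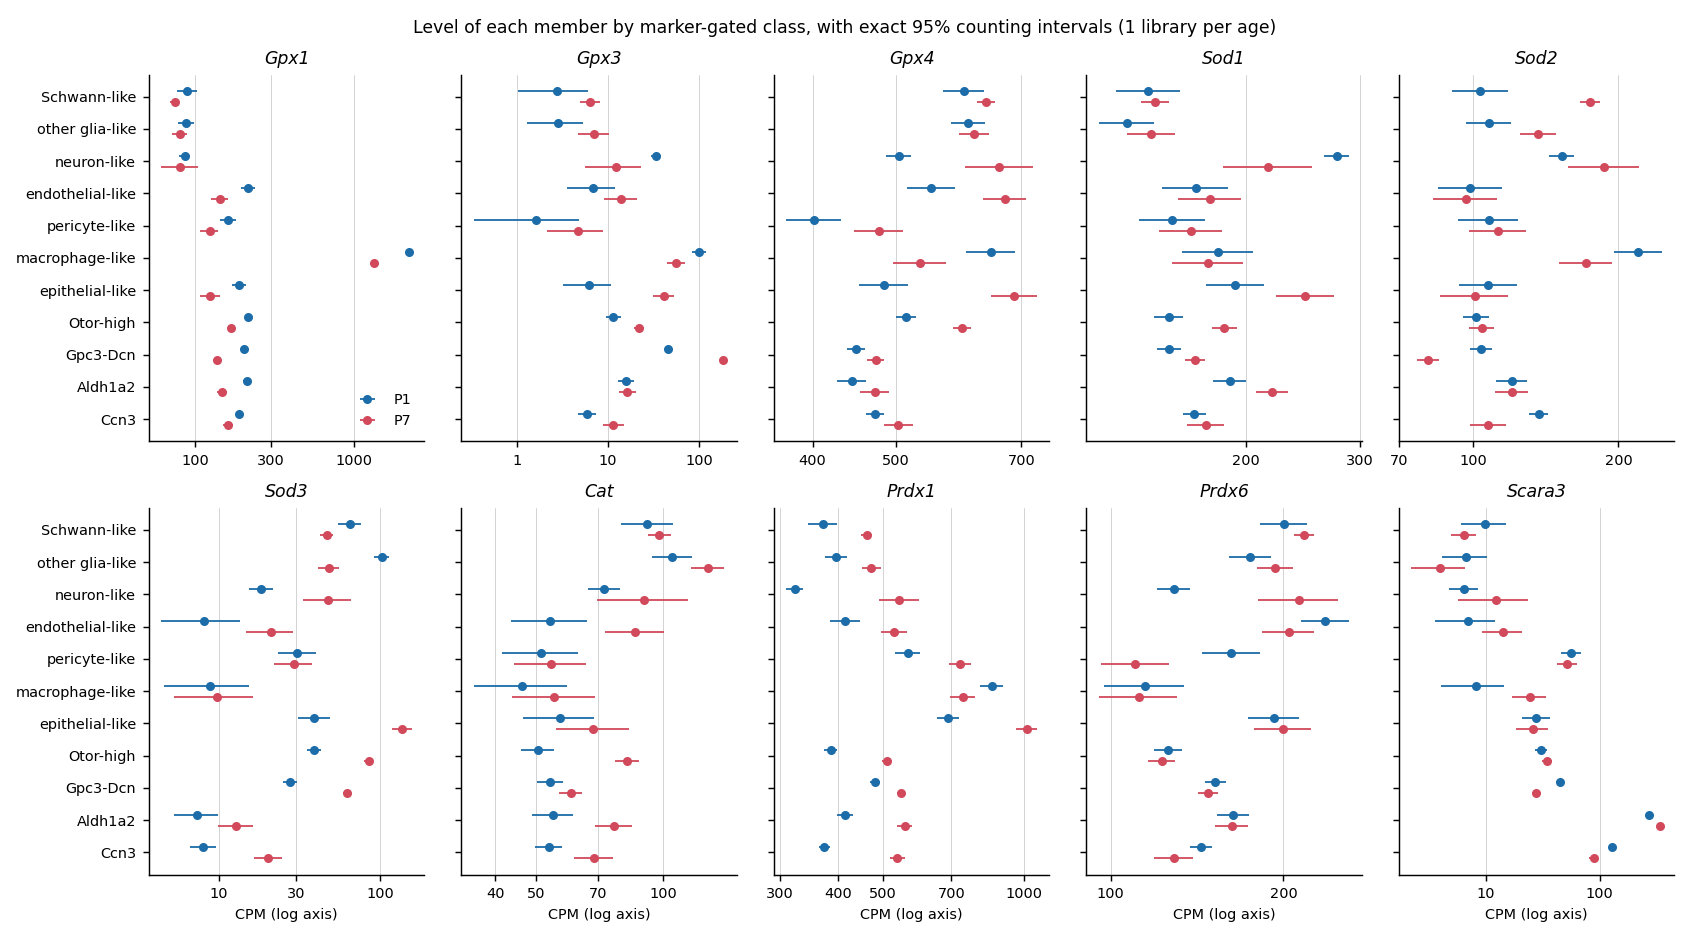
Level of each of the 10 genes in CPM (horizontal log axis, different for each gene) in the 11 marker-gated classes (vertical axis), at P1 in blue and P7 in red, with exact 95% counting intervals and 1 library per age. Gpx1 stood at 2249 and 1349.8 CPM in macrophage-like cells and at most at 217 CPM in any other class, Scara3 was highest in the gated Aldh1a2 cells at both ages (at P1 in the Ccn3 cells with classes from clusters), and Gpx4 and Sod1 spanned a narrow range.

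Gpx1, the main cytosolic glutathione peroxidase and a selenoprotein (ENSRNOG00000048812), was highest in the macrophage-like cells at both ages. It stood at 2249 CPM there at P1, against 217 CPM in the endothelial-like cells, the next class, and 86.3 CPM in the neuron-like cells, the lowest. The macrophage-like cells held 1.39% of the UMIs of the P1 library but 14.7% of its Gpx1 UMIs, and 1.56% and 13.8% at P7. Its log2 ratio was negative in all 11 classes, and past the fold in 3: the macrophage-like cells (2249 and 1349.8 CPM, -0.74, interval -0.82 to -0.65), the epithelial-like cells (189.9 and 124 CPM, -0.62) and the endothelial-like cells (217 and 143 CPM, -0.60). The Gpc3-Dcn cells (204 and 138 CPM, -0.57) and the Aldh1a2 cells (213 and 148 CPM, -0.53) lay just inside the limit. Its median over the classes was -0.39. In the other glia-like and neuron-like cells the interval held 0, and over the alternatives the sign turned in 3 classes, up to 0.01 in the other glia-like, 0.04 in the neuron-like and 0.14 in the Ccn3 cells. The 10 other classes held Gpx1 at 3.84% to 9.66% of its macrophage-like level at P1 and 5.50% to 12.5% at P7, the epithelial-like cells at 8.44% and 9.18% and the endothelial-like cells at 9.66% and 10.6%. The 8 macrophage-like markers summed to 0.0130% to 0.242% of their own level in those classes at P1 and 0.135% to 0.269% at P7, and were more abundant at P7 in all of them but the endothelial-like cells. In the epithelial-like cells C1qa, C1qb, C1qc and Csf1r were at 0 at P1 and none at P7, and in the endothelial-like cells none was at 0 at either age.

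Gpx3 (ENSRNOG00000052564), the secreted glutathione peroxidase, had its largest difference in CPM in the Gpc3-Dcn cells, a class whose markers include the matrix genes Dcn, Vcan and Col6a1. The level there was 46.1 CPM at P1 and 184 at P7, a 3.99-fold difference (log2 ratio 1.99, interval 1.87 to 2.12), on 663 and 3129 UMIs, and 98.6% of all genes in these cells had a lower ratio. Gpx3 was one of the 10 leading genes of the class by fold at P7. These cells held 37.1% of all Gpx3 UMIs at P1 and 62.1% at P7, with 14.7% and 18.3% of the UMIs of the libraries. At P1 the class stood second to the macrophage-like cells, at 100.1 CPM, and at P7 it stood first and apart from them, at 56.0 CPM. The clusters named for the Gpc3-Dcn cells held 2641 and 6 cells at P1 and 29 and 1746 at P7, so that they differed between the ages here too. Over the 8 settings tried, the log2 ratio of Gpx3 in the Gpc3-Dcn cells ran from 1.88 to 2.60.

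Gpx3 was also higher in the Otor-high cells (11.5 and 22.2 CPM), the Ccn3 cells (5.94 and 11.5 CPM, -3.23 on the log2 scale where classes were taken from clusters, which shared 91 of the 643 gated cells at P7) and the endothelial-like cells (6.88 and 14.1 CPM, 12 and 25 UMIs, interval of the log2 ratio -0.01 to 2.16). The Aldh1a2 cells had 16.0 and 16.4 CPM and did not pass the fold (0.04, interval -0.40 to 0.48). In the epithelial-like cells it had 6.26 and 41.1 CPM, on 12 and 62 UMIs, with a log2 ratio of 2.71 (1.81 to 3.74). The 5 markers of the Gpc3-Dcn cells summed to 132 CPM in the epithelial-like cells at P1 and 457 at P7, 4 of the 5 were higher in CPM at P7, none was at 0, and their sum was 3.24% and 5.42% of that in the Gpc3-Dcn cells. Gpx3 itself stood there at 22.4% of its Gpc3-Dcn level at P7. In the Otor-high, Ccn3 and endothelial-like cells Gpx3 stood at 12.1%, 6.27% and 7.68% of that level at P7, and the same markers summed to 228 and 405 CPM, 172 and 396 CPM, and 159 and 275 CPM, with 3, 3 and 2 of the 5 higher in CPM at P7 and none at 0. At P1 these sums were 5.59%, 4.21% and 3.89% of the Gpc3-Dcn level, and at P7 they were 4.69% in the Ccn3 and 3.26% in the endothelial-like cells. The part of these transcripts in the Gpx3 differences was not tested.

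Lower levels of Gpx3 at P7 were found in the macrophage-like cells (100.1 and 56.0 CPM, log2 ratio -0.84, interval -1.25 to -0.43) and in the neuron-like cells (33.7 and 12.3 CPM, -1.46, interval -2.60 to -0.51). The second of these rested on 241 and 9 UMIs, in the class with the depth difference given above. In the neuron-like cells the summed level of the 6 myelinating Schwann-like markers was 1079 CPM at P1 and 6603 at P7, with Ncmap at 0 at both ages and 5 of the 6 higher at P7, and the part of these transcripts in the difference was not tested. Gpx3 was under 10 CPM at both ages in the glial and pericyte-like classes.

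A UMI of Gpx3 was found in 8.32% of Gpc3-Dcn cells at P1 and 25.1% at P7 after thinning (25.9% and 53.4% without it, at median depths of 7010 and 7237 UMIs). In the other glia-like cells, where Gpx3 was under 10 CPM, the thinned shares were 0.633% and 0.828% (1.67% and 3.09% without thinning, at 5288 and 4674 UMIs). The share in the Gpc3-Dcn cells was above that of the glia at both ages.

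**Figure D3:**
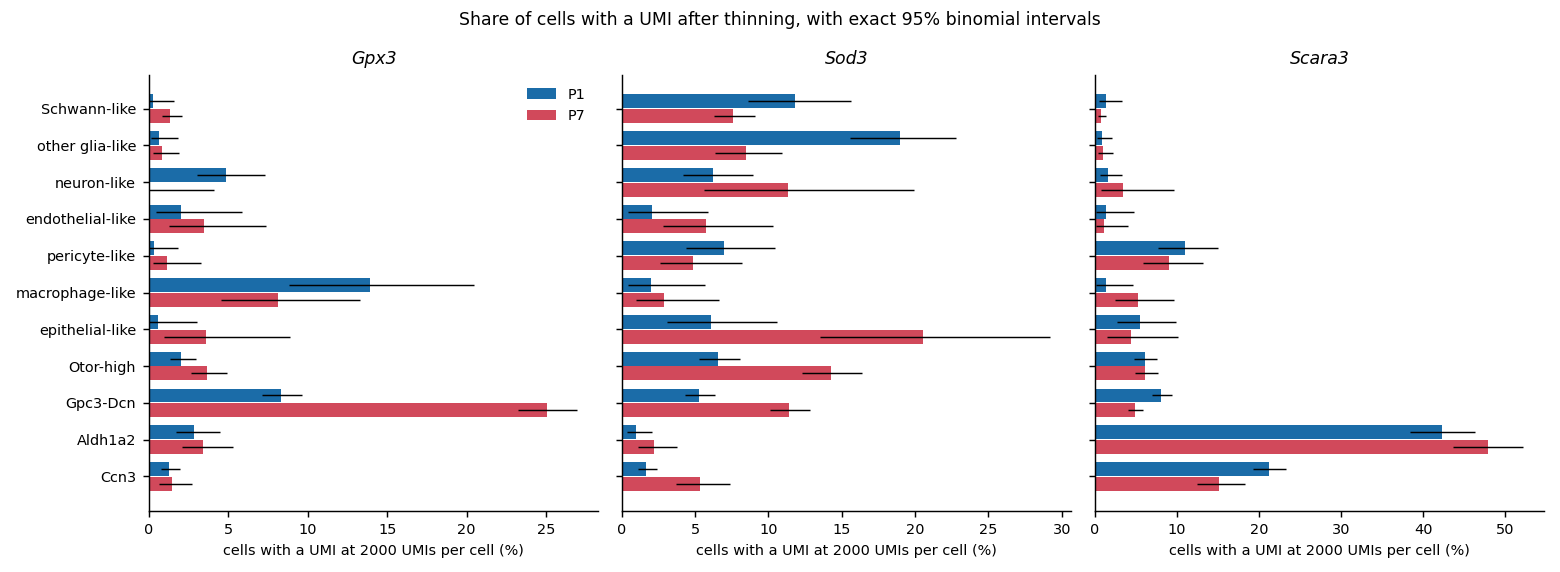
Percent of cells with at least 1 UMI of Gpx3, Sod3 or Scara3 (horizontal axis) in each marker-gated class (vertical axis) after thinning every cell to 2000 UMIs, at P1 in blue and P7 in red; black lines are exact 95% binomial intervals. The Gpc3-Dcn bar of Gpx3 goes from 8.32% to 25.1%, and the Aldh1a2 bar of Scara3 from 42.3% to 47.9%.

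Gpx4 (ENSRNOG00000013604), the selenoprotein that reduces lipid peroxides in membranes and so restrains ferroptosis, was evenly expressed over the classes. The highest class exceeded the lowest by 1.61-fold at P1 (macrophage-like, 645 CPM, against pericyte-like, 401 CPM) and by 1.45-fold at P7 (epithelial-like, 687 CPM, against Aldh1a2, 472 CPM), and 9 of the 10 pairs of neighbours in the order overlapped at each age. Its ratio stayed within 1.5-fold in all classes. The largest differences were in the epithelial-like cells, at 484 and 687 CPM (log2 ratio 0.50, interval 0.37 to 0.63), and in the macrophage-like cells, the single class with a negative ratio (-0.27, interval -0.42 to -0.13).

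Prdx1 (ENSRNOG00000017194), an abundant cytosolic peroxiredoxin, had a positive log2 ratio in 10 of the 11 classes, but passed the fold in the neuron-like cells alone (323 and 541 CPM, log2 ratio 0.75, interval 0.59 to 0.90). The epithelial-like cells went from 687 to 1016 CPM (0.56, interval 0.46 to 0.67) and were the highest class at P7. The macrophage-like cells, the highest at P1, went from 854 to 741 CPM (-0.21). The Ccn3 cells had 373 and 536 CPM (0.52). Prdx1 also differed with the cell cycle: in mesenchymal cells with genes of division it stood at 566 CPM at P1, against 398 CPM in those without (log2 difference 0.51, interval 0.45 to 0.57), and at 699 against 521 CPM at P7 (0.42, interval 0.36 to 0.49). In glia-like cells the difference was 0.21 at P1 and 0.20 at P7. Prdx1 was not alone among the 10 genes in this. Gpx4 was lower in dividing cells at P1 and P7, in mesenchymal (-0.31 and -0.29) and in glia-like cells (-0.49 and -0.48). Prdx6 was lower as well (-0.15 and -0.17, and -0.31 and -0.17). In dividing mesenchymal cells Scara3 was lower (-0.47 and -0.38) and Sod2 higher (0.18 and 0.21). Dividing mesenchymal cells were deeper, with medians of 10966 against 6935.5 UMIs at P1.

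Prdx6 (ENSRNOG00000002896), the peroxiredoxin that also has phospholipase activity, was nearly level over all cells, and its classes went in both directions. It was higher at P7 in the neuron-like cells (129 and 213 CPM, log2 ratio 0.72, interval 0.47 to 0.97), whereas in the pericyte-like cells it had 162 and 110.3 CPM (-0.56, interval -0.82 to -0.30), just inside the limit. The neuron-like values of Prdx1 and Prdx6 come from the class whose depth and Schwann-like transcripts differed between the ages as given above, and the part of these was not tested. The endothelial-like cells were highest at P1, at 237 CPM, and the Schwann-like cells at P7, at 217 CPM, and in both cases the next class overlapped. Among epithelial-like cells, those with at least 2 tectorial membrane genes had more Prdx6 than the rest at both ages. The log2 differences were 0.47 (interval 0.14 to 0.80) and 0.48 (0.02 to 0.96). The rest had 112 and 47 UMIs of Prdx6, in the few and less deep cells given above.

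Scara3 (ENSRNOG00000016177) was highest in the Aldh1a2 cells as gated, a class set by Aldh1a2, Itga8, Calb2 and Wnt6. The study reports Scara3, Aldh1a2 and Calb2 as high on the same cluster of these libraries. The rank of Scara3 is therefore not independent of how this marker list was chosen. Scara3 had 273 CPM in the Aldh1a2 cells at P1, followed by 129 CPM in the Ccn3 cells, 56.2 CPM in the pericyte-like cells and 44.8 CPM in the Gpc3-Dcn cells. At P7 the order began in the same way, with 335, 88.2 and 51.5 CPM, and the Aldh1a2 cells were apart from the Ccn3 cells at both ages. With classes from clusters, where 18 of the 632 gated P1 cells were shared, the Ccn3 cells were the highest class at P1. After thinning, 42.3% and 47.9% of the Aldh1a2 cells had a UMI, against 0.844% and 0.993% of the other glia-like cells (83.5% and 89.9% against 2.93% and 1.95% without thinning, at median depths of 7845 and 8690 against 5288 and 4674 UMIs).

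Over all cells the log2 ratio of Scara3 was negative but within the fold, and the classes went in both directions. In the Aldh1a2 cells the ratio was 0.30 (interval 0.20 to 0.40), and it ran from 0.06 to 1.16 over the 8 settings tried, 1 of them past the fold. It was -0.54 in the Ccn3 cells (-0.70 to -0.39), short of the fold but past it in 4 of the 8 settings, the lowest at -1.38, and -0.69 in the Gpc3-Dcn cells (44.8 and 27.7 CPM, -0.87 to -0.52), past it. The Ccn3 cells made up 12.9% of the kept cells at P1 and 5.11% at P7, and their part of all Scara3 UMIs was 26.4% at P1 and 9.23% at P7, while that of the Aldh1a2 cells was 22.8% and 36.6%. The cells in no class held 33.0% of all Scara3 UMIs at P1 and 29.9% at P7, and Scara3 was lower there past the fold. With every class given the same weight, also those below where Scara3 rested on few UMIs, the log2 ratio over the classes was 0.06. The pericyte-like (-0.13), epithelial-like (-0.10) and Otor-high cells (0.17) had intervals that held 0.

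Scara3 also passed the fold upwards in the macrophage-like cells (8.10 and 24.2 CPM, 11 and 35 UMIs), the endothelial-like cells (6.88 and 14.1 CPM, 12 and 25 UMIs) and the neuron-like cells (6.43 and 12.3 CPM, 46 and 9 UMIs). Of these 3, the macrophage-like cells had an interval above 0 (log2 ratio 1.58, 0.57 to 2.70, and 2.999 with doublets left out), and the intervals of the others held 0. The ratio of the neuron-like cells turned to -0.27 with 1 more marker required and to -1.35 with classes from clusters. In the macrophage-like cells Scara3 stood at 2.97% and 7.21% of its Aldh1a2 level. The 4 markers of the Aldh1a2 cells summed there to 29.4 CPM at P1 and 83.6 at P7, or 2.19% and 4.48% of their level in the Aldh1a2 cells, with all 4 higher at P7 and none at 0. In the endothelial-like cells these markers summed to 14.3 and 23.7 CPM (1.07% and 1.27%), with all 4 higher at P7. In the neuron-like cells they summed to 14.9 and 51.8 CPM (1.11% and 2.78%), with 3 of the 4 higher. None was at 0 in either class. The part of these transcripts in the Scara3 differences was not tested.

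Summed over the 9 enzymes, the macrophage-like cells stood at 4419 CPM at P1 (interval 4308 to 4532) and 3202 CPM at P7 (3111 to 3296). Gpx1 made up 2249 and 1349.8 CPM of these counts, a part that depends on capture, which differs between genes as given above. The epithelial-like cells had 1956 and 2620.3 CPM, and the neuron-like cells had 1595 and 2048 CPM. The other 8 classes lay between 1549 and 1752 CPM at P1 and between 1710.3 and 1938 CPM at P7. The neuron-like values come from the class whose depth and Schwann-like markers differed between the ages as given above, and their part was not tested.

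Levels over the classes at both ages (22 points, which share the libraries and their free RNA) were compared as log2(CPM + 5) with those of 11068 genes. The genes most like Scara3 were Pip5k1b (Pearson r = 0.93), Itga8 (0.93, one of the genes that gated the Aldh1a2 cells) and Rorb (0.91). Most like Gpx1 were Dok2 (0.94), Lsp1 (0.93) and Myo1f (0.93), and most like Cat were Fign (0.93), Prnp (0.88) and Golga7 (0.88). Sod3 was most like Sox5 (0.85), Ndrg2 (0.82) and Ehbp1 (0.82), and Gpx3 was most like Kcnk13 (0.81), B3galnt1 (0.79) and A3galt2 (0.79). For the more evenly expressed genes, the likest were Ssu72 for Sod1 (0.89), Dohh for Sod2 (0.83), Cd9 for Gpx4 (0.80), Tmem51 for Prdx1 (0.90) and S100a13 for Prdx6 (0.81). Among the 10 genes themselves, the highest r was 0.59, between Cat and Gpx4, and the lowest was -0.66, between Scara3 and Gpx4.

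The other genes of these pathways were taken from 8 lists of 90 genes, over all cells, where 23.1% of all genes were higher and 15.3% lower. Of 7 other peroxiredoxins and glutathione peroxidases of at least 10 CPM, counted with the copper chaperone Ccs, 1 was higher and none lower. It was Prdx3, the mitochondrial peroxiredoxin (63.7 and 99.2 CPM, log2 ratio 0.64), and Gpx8, an enzyme of the endoplasmic reticulum, lay just inside at 0.57 (230 and 342 CPM). The lowest ratios were those of Prdx2 (-0.10) and Ccs (0.20).

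Of 9 selenoproteins and genes of their synthesis, 3 were higher and none lower, with a median log2 ratio of 0.48 against 0.13 over all genes. They were Selenok (132 and 258 CPM, 0.97) and Selenof (464 and 743 CPM, 0.68), both of the endoplasmic reticulum, and Selenom (0.65), while Sephs2 (-0.18) and Secisbp2 (0.10), which serve selenoprotein synthesis, had the lowest ratios. Of 12 genes of glutathione synthesis and transfer, 3 were higher and none lower, led by the transferases Gsta1 (26.7 and 57.6 CPM, 1.11) and Gstm3 (215 and 350.2 CPM, 0.70), with Mgst3 (-0.47) and Gss (-0.10) lowest. The third was Gstm4 (0.63), and the median of the list was 0.14. Selenom and Gstm4 here, and Glrx and Sesn3 below, are named because they complete a count and were chosen after their values were seen.

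Of 14 genes of the thioredoxin and glutaredoxin system, 2 were higher and 4 lower. Glrx2 (36.5 and 55.1 CPM, 0.59) and Txn1 (282 and 424 CPM, 0.59) were higher, and Txnip, which binds and inhibits thioredoxin (812 and 407 CPM), and Txnrd1, the cytosolic thioredoxin reductase (43.2 and 22.8 CPM, -0.92), had the lowest ratios, followed by Glrx (-0.83) and Sesn3 (-0.71). The median of the list was 0.01. Of 9 genes of NRF2 and its targets, 1 was higher and 1 lower: Nfe2l2 itself (16.6 and 43.9 CPM, 1.40) and Bach1, a repressor at the same element (12.3 and 4.77 CPM, -1.36). Keap1, the inhibitor of NRF2, had a ratio of 0.45 and Hmox1, an NRF2 target, -0.46, and the median was -0.05.

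Of 6 genes of copper supply, 1 was higher, Cox17 (24.8 and 61.3 CPM, 1.31), and 2 were lower, the metallothioneins Mt1 (57.7 and 36.8 CPM, -0.65) and Mt2A (48.8 and 30.6 CPM, -0.67), while Mt3 had a ratio of 0.39. Of the class A scavenger receptors related to Scara3, Scara5 was higher (25.2 CPM at P1, log2 ratio 0.67), Colec12 was within (203 and 251 CPM, 0.31), Msr1 was under 10 CPM at both ages, and Marco was listed at 0. Of 8 oxidant sources in the files, only Cyba, a subunit of NADPH oxidase, reached 10 CPM (215 and 245 CPM, 0.19), and it was highest in the macrophage-like cells at both ages.

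**Figure D4:**
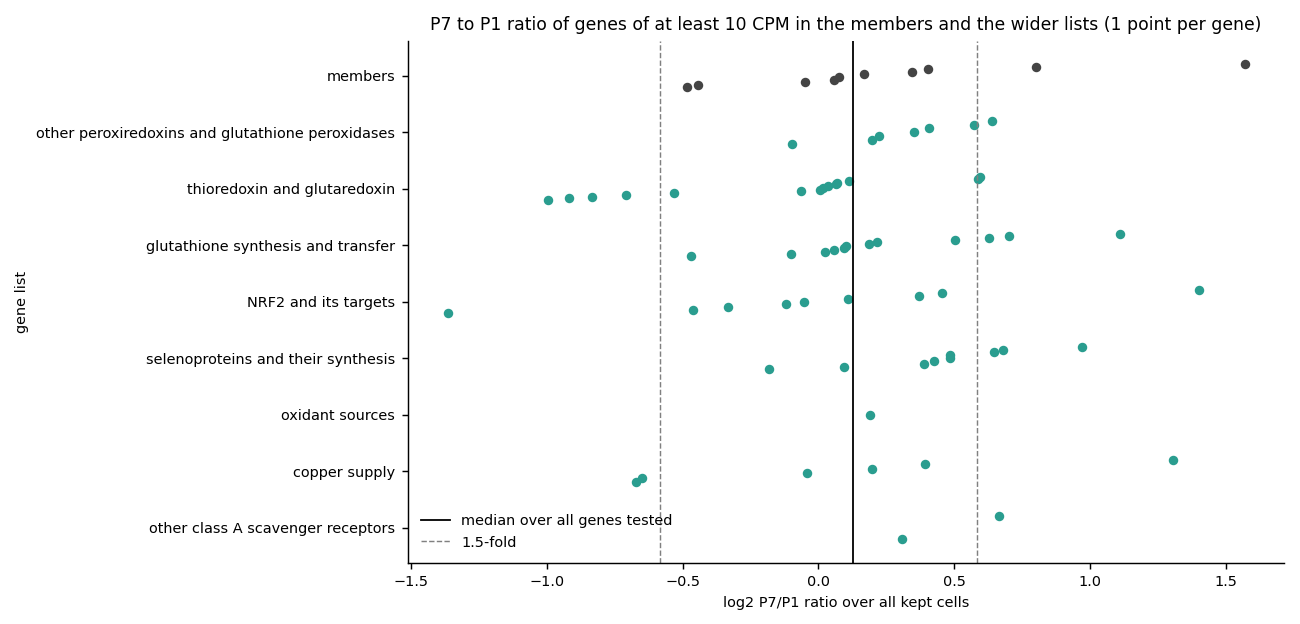
Log2 ratio of P7 to P1 over all kept cells (horizontal axis) for each gene of at least 10 CPM among the 10 members and in the 8 wider lists (vertical axis), 1 point per gene. The solid line is the median of all genes (0.13) and the dashed lines mark 1.5-fold; Gpx3 is the rightmost member at 1.57, and the selenoprotein list has its median at 0.48.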

How the data were processed

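The authors demultiplexed the reads with bcl2fastq, aligned them to the rat genome rn6 and made the deposited count of UMIs per gene and barcode with Cell Ranger 3.1.0; the submitters' processing notes also name Seurat 3.1.1. The limits on cells followed the study's methods: a gene number above 500 and below 5000, a minimum of 500 UMIs, and a mitochondrial share below 25%. Each cell was given the marker list with the highest mean z-score, of at least 0.5, with a margin of 0.25 over the next list and at least 3 distinct markers. These limits were set after the marker scores had been seen and before the values of the 10 genes were read. Of the cells in a class, 5.67% lay near the limits, and 40.3% of P1 and 39.0% of P7 cells were in no class. Scrublet, in scanpy 1.11.5, called 4.68% and 6.12% of cells as doublets, which were kept.

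Counts were summed over the cells of a class and divided by its total (CPM). A gene was compared where it had at least 10 CPM at one age and called past a ratio of 1.5. Intervals at the 95% level are Poisson-based for levels, conditional binomial for ratios and Clopper-Pearson for shares, and were tested on simulated data. Cells were thinned to 2000 UMIs for shares of cells with a UMI. Classes from clusters (leidenalg 0.10.2), with the 10 genes left out, were an alternative, and the others changed the limits on cells, the doublets, the depth, the scaling and the gate. Named in the wider lists were the 2 genes with the largest and the 2 with the smallest ratio, and for likeness the 3 genes with the highest r.

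The 10 genes and the lists were chosen with earlier results of these data known, and the 4 mesenchymal lists hold genes that the study picked on these same libraries. Some listed genes, such as Srxn1, Ggt5 and Pgd, are not analysed here. The annotation was matched by symbol, and coordinates are those of the RefSeq build, not of rn6. The tools were numpy 2.4.6, scipy 1.17.1, pandas 2.3.3 and matplotlib 3.10.9 under Python 3.11.15.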

Additional observations from a re-analysis of the deposited data

Results flagged for a closer look

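For 3 genes the difference between the ages passed 1.5-fold in opposite directions in different classes, and the intervals of the ratios given here did not hold 0. For Gpx3 the log2 ratio (P7 over P1) was 2.71 in the epithelial-like cells and -1.46 in the neuron-like cells, where it rested on 9 UMIs at P7. That of Sod3 was 1.81 in the epithelial-like cells and -1.09 in the other glia-like cells. That of Scara3 was 1.58 in the macrophage-like cells, where it rested on 11 UMIs at P1, and -0.69 in the Gpc3-Dcn cells. With 1 library per age these differences between classes were not tested.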

How the results depend on the processing

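Over all cells 2 genes passed the fold under 8 of the 10 alternatives, 1 passed with cells thinned to 2000 UMIs, where Sod3 stood at 0.58, and 3 passed (2 higher and Gpx1 lower, at -0.61) after centring on the median of all genes. With each class weighted alike the 2 were Gpx3 (0.68) and, lower, Gpx1 (-0.59), and Scara3 turned to 0.06. Gpx3 stayed between 0.68 and 1.74. Within the classes, 27 pairs passed, 20 higher and 7 lower, and 25 to 34 under the alternatives: 18 and 12 after centring, 20 and 11 with totals that left out mitochondrial, ribosomal protein and haemoglobin genes, and 21 and 13 with classes from clusters. As gated, 21.8% to 32.8% of all genes were higher and 12.6% to 28.4% lower, depending on the class. Such shares are not given here for the alternatives. The log2 ratio of Scara3 in the neuron-like cells turned to -0.27 with 1 more marker and -1.35 with clusters, that of Sod3 in the Aldh1a2 cells to -0.83 and that of Gpx3 in the Ccn3 cells to -3.23 with clusters, and the cause was not tested. The share of cells with a UMI was higher at P7 for 7 of the 10 genes at every depth tried, and 16 of 20 highest classes were the same with clusters (Scara3 at P1 turned to the Ccn3 cells, and Gpx4, Cat and Prdx6 at P7 to the neuron-like cells) and 19 with 1 more marker (Prdx6 at P7 turned to the endothelial-like cells). No paired analysis was possible because there was 1 library per age, and for the same reason no replicate could be left out. Depth limits the classes with few cells or UMIs, such as the 97 neuron-like cells at P7.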
